A study of Mus musculus with 16 samples.

Results

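The 10 genes described here encode enzymes that lengthen fatty acids (the elongases Elovl1, Elovl2, Elovl3, Elovl5, Elovl6 and Elovl7) or put double bonds into them (the desaturases Fads1, Fads2, Scd1 and Scd2). They were found by symbol in a table of 53465 genes, and all 10 had enough counts to be among the 14998 genes tested. The counts come from bulk RNA sequencing of livers of C57BL/6 mice, a common inbred strain. Mice ate a control diet (CD) or a high-fat diet (HFD) for 16 weeks, the latter to make the liver fatty, and were then given perfluorooctanoic acid (PFOA), a persistent fluorinated surfactant, or vehicle for 8 weeks. This gave 4 groups of 4 mice (CD_vehicle, CD_PFOA, HFD_vehicle and HFD_PFOA), all aged 29 to 30 weeks, and each mouse is a replicate. Sex and PFOA dose, not given in the sources used here, were not analysed. The comparisons ask how PFOA changes RNA levels in lean and in fatty liver, and what the diet changes with and without PFOA.

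Fatty acid synthase makes palmitate, a saturated fatty acid, in the liver cell. Elovl6 lengthens palmitate to stearate, and Elovl1, Elovl3 and Elovl7 extend saturated and monounsaturated chains further, towards the very long chains of sphingolipids, sebum and storage fat. The stearoyl-CoA desaturases Scd1 and Scd2 turn palmitate and stearate into monounsaturated fatty acids such as oleate; Scd1 is the main form of adult mouse liver, and Scd2 is best known from brain, adipose tissue and developing liver. The essential fatty acids linoleate and alpha-linolenate come from food and are made into arachidonate and docosahexaenoate by alternating steps: Fads2 desaturates, Elovl5 elongates, Fads1 desaturates again, and Elovl2 makes the longest polyunsaturated chains. Many of these genes are known targets of the transcription factors SREBP-1c, ChREBP and LXR, which drive fat synthesis, and several respond to PPARA, the fatty acid sensor that PFOA is known to activate in mice.

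In GENCODE M21 on GRCm38 all 10 are protein-coding, and 5 lie on chromosome 19. Identifiers are printed with the version the count table gives, which differs from that of M21 for Scd1, Scd2, Fads1, Fads2 and Elovl3. Scd2 (ENSMUSG00000025203.5) is at 44293674 to 44306864 and Scd1 (ENSMUSG00000037071.2) at 44394455 to 44407879, with Scd3 and Scd4 beside them. Fads2 (ENSMUSG00000024665.7) is at 10062765 to 10101746 and Fads1 (ENSMUSG00000010663.4) at 10182888 to 10196877, and Elovl3 (ENSMUSG00000038754.4) is at 46131897 to 46135694. Elovl6 (ENSMUSG00000041220.10) lies on chromosome 3 at 129532355 to 129638495, Elovl1 (ENSMUSG00000006390.15) on chromosome 4 at 118428093 to 118432953 and Elovl5 (ENSMUSG00000032349.13) on chromosome 9 at 77917364 to 77984519. On chromosome 13 are Elovl2 (ENSMUSG00000021364.16), at 41182381 to 41220405, and Elovl7 (ENSMUSG00000021696.9), at 108214404 to 108285683.

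Scd1 and Scd2 are close relatives, and reads from them can be hard to assign. Their coding sequences were identical at 962 of 1074 aligned bases (89.57%), with a longest identical run of 147 bases. The stretch below, coding bases 511 to 681 of Scd1 and 520 to 690 of Scd2 in transcripts Scd1-201 and Scd2-201 of GENCODE M21, is shown because only the 2 bases in capitals differ over 171 bases.
Scd1: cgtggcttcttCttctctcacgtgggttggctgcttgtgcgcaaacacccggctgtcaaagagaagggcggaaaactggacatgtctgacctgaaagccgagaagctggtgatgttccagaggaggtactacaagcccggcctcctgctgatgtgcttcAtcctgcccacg
Scd2: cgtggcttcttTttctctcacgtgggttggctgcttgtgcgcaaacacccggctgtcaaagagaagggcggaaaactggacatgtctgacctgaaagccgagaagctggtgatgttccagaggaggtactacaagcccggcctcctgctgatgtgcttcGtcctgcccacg
Over whole transcripts far less is shared. Of all 100-base stretches of Scd2, 0.879% occur in another gene, against 2.58% of those of Scd1 and 0.868% of those of Elovl6, whose copies lie mostly in Gm11295. The other 7 genes share no 100-base stretch with any gene. Of 50-base stretches more are shared: 3.97% for Scd2, 4.56% for Scd1 and 3.98% for Elovl6. Elovl1 (0.139%), Elovl7 (0.0249%) and Fads2 (0.152%) also share a few at that length. The treatment of reads that fit several genes, not given in the sources used here, leaves the levels of Scd1, Scd2 and Elovl6 with that uncertainty. The libraries were not stranded, so reads from genes on the opposite strand count too: Elovl1 shares 53 exon bases with Cdc20, Elovl6 34 with Gm35986 and Elovl3 10 with Pitx3, and each partner had far fewer counts than the member (1003, 1796 and 578 against 17205, 131361 and 47768 over the 16 libraries).

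Promoter sequences from RefSeq on GRCm38.p6 were matched to 6 of the 10 genes. The 3 windows shown, each of 200 bases ending 51 bases before the transcript start, were chosen with the values known: Elovl6 and Elovl2 both fell with PFOA on the control diet, and Elovl5, which works in the same branch as Elovl2, was not called. They are chr3:129532136-129532335 on the plus strand, chr13:41220454-41220653 on the minus strand and chr9:77917115-77917314 on the plus strand, and capitals mark matches to the motifs searched.
Elovl6: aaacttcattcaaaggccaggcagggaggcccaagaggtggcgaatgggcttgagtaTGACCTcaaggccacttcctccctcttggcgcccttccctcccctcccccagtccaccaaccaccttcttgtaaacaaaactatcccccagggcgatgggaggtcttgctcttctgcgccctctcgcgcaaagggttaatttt
Elovl2: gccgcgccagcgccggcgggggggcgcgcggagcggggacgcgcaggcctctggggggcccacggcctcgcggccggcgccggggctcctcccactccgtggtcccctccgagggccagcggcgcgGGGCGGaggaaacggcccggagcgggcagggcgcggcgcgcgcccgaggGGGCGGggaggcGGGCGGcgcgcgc
Elovl5: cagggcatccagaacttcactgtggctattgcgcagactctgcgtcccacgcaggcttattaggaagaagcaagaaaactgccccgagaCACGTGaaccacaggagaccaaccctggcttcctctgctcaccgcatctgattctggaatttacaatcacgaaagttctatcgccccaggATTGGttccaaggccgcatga
Elovl6 holds 1 copy of the nuclear receptor hexamer AGGTCA, on the opposite strand at bases -193 to -188 from the start. Elovl2 holds 3 GC boxes (GGGCGG), and Elovl5 holds an E-box (CACGTG) at -161 to -156 and, on the opposite strand, an NF-Y box (CCAAT) at -71 to -67. Of 32851 mouse promoter windows of this length, searched on both strands, 11.4% hold the hexamer, 24.6% a GC box, 4.34% the E-box and 28.4% an NF-Y box. An SREBP element (TCACNCCAC), present in 0.81% of windows, and 2 copies of the hexamer AGGTCA in 1 direction with 1 base (0.0244%) or 4 bases (0.0122%) between them, which also count as single hexamers, were not matched in these 3 windows. A match describes the letters only.

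Library totals ran from 14456524 to 25778125 counts. Levels are given as CPM, a gene's counts scaled to a common library size with TMM factors. The labelled tissue fits its markers: all 7 hepatocyte markers were present in every group, and their summed level ran from 52536 to 135240 CPM. This sum was lower with PFOA, at 57950 to 75213 CPM in CD_PFOA against 94938 to 135240 in CD_vehicle, and at 52536 to 62981 in HFD_PFOA against 79537 to 93648 in HFD_vehicle. Whether it moved through fewer hepatocytes or less RNA per cell cannot be told apart in bulk liver, and its part in the results was not tested. Libraries CD_vehicle 1 and CD_vehicle 4 stood apart from their group: Fasn, fatty acid synthase, was at 1265 CPM in CD_vehicle 1 against 2942 to 4444 in the other 3, and Elovl3 was at 96.3 CPM in CD_vehicle 4 against 304 to 354. A member's call that changed without one or both of these libraries is therefore given beside the result. Both were picked after their values were seen, so a call gained without them is no separate support.

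PFOA on the control diet changed 6 of the 10 genes at adjusted p under 0.05 by edgeR's quasi-likelihood test, where 24.4% of all genes tested were called. Of these, 3 were higher (Scd2, Elovl7, Fads2; 11.8% of all genes were called higher) and 3 lower (Elovl3, Elovl6, Elovl2; 12.6% lower). On the high-fat diet PFOA changed 4 of 10, where 16.5% of all genes were called. Scd2, Fads2 and Elovl1 were higher (8.60% of all genes) and Elovl7 was lower (7.91%). The number of genes whose 4 PFOA livers did not overlap the 4 vehicle livers was 4 of 10 on the control diet, against 22.7% of all genes, and 6 of 10 on the high-fat diet, against 25.3%.

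The high-fat diet under vehicle changed 6 of 10, where 10.4% of all genes were called. Scd2 and Elovl7 were higher (5.19% of all genes) and Elovl3, Elovl6, Elovl2 and Fads1 lower (5.21%), and the groups did not overlap in 3 of 10, against 14.5% of all genes. Under PFOA the diets differed in 0 of 10 members by edgeR and 0 by DESeq2, with 2 members at an unadjusted p under 0.05. The share of all genes at that unadjusted p was not computed. In this comparison edgeR called 0.0600% of all genes, 0.0467% higher and 0.0133% lower. The response to PFOA differed between the diets in 1 member, Elovl2, with a higher value on the high-fat diet, where 0.207% of all genes were called, 0.0667% in this direction and 0.140% in the other.

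**Figure D1:**
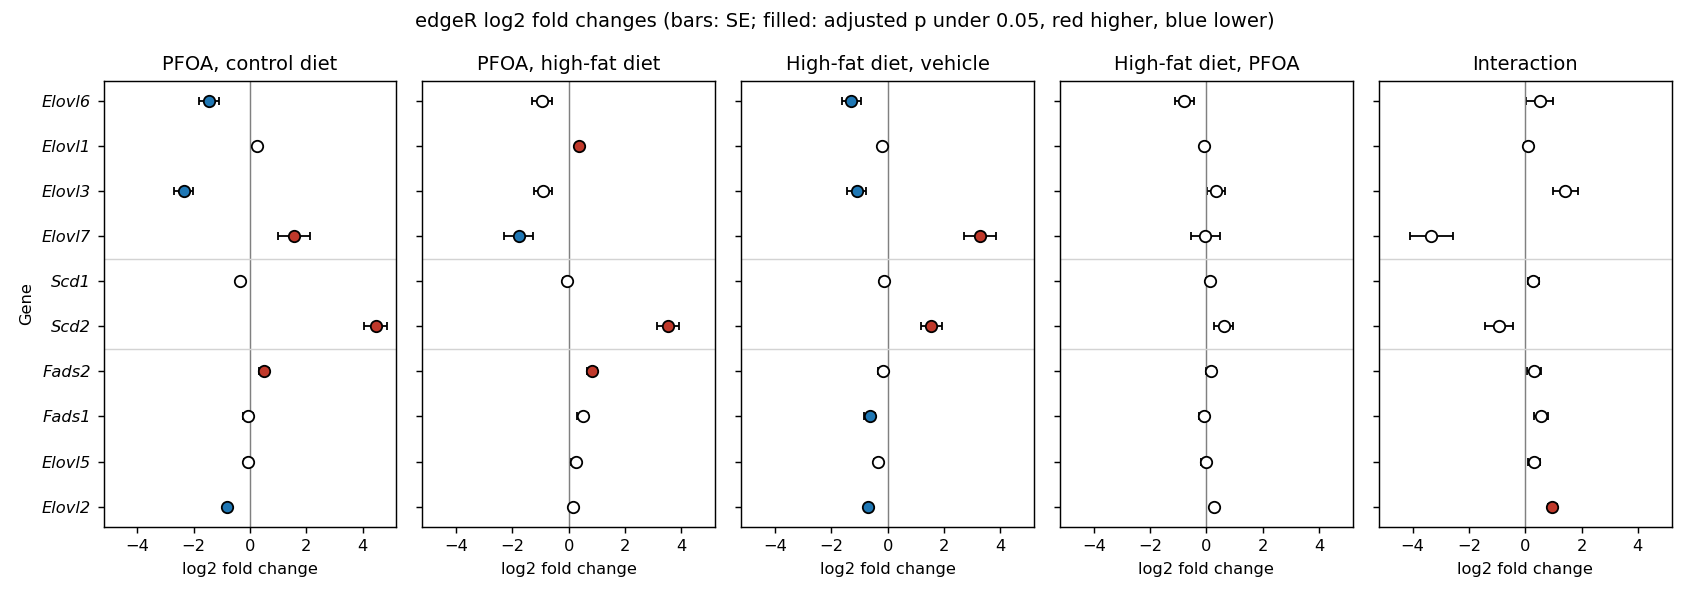
The log2 fold change of each of the 10 genes (vertical axis) in the 4 comparisons and the interaction (panels), with bars for the SE and filled points for an edgeR adjusted p under 0.05, red higher and blue lower. Scd2 lies far to the right in both PFOA panels (4.47 and 3.53), Scd1 lies near 0 in every panel, and Elovl2 is the filled point of the interaction panel.

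The scaling of libraries bears on the diet comparison under vehicle. With TMM scaling 49.9% of its called genes were higher, and with library totals alone 87.69% were (2052 higher, 288 lower), the median of all genes moving from -0.03 to 0.19 on the log2 scale. For PFOA on the control diet the share of calls that were higher moved from 48.22% to 61.09%, for diet under PFOA from 77.78% of 9 calls to 91.67% of 12, and for the interaction from 32.26% of 31 calls to 13.64% of 44, with its median moving from 0.02 to -0.10. No member changed direction in a called result under any scaling. With library totals the diet falls of Elovl3 (-0.86, adjusted p 0.0637 by edgeR) and Fads1 (-0.43, adjusted p 0.131 by edgeR) were no longer called.

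The monounsaturated branch held the most abundant and the most changed member. Scd1 alone took 4.45% to 5.60% of all counts in the group means, and the 10 genes together 4.98% to 6.06%. Per kilobase of exon, which allows genes to be compared, Scd1 stood at 11809 ± 2030 CPM per kb (SD, n = 4) in CD_vehicle. Elovl5, the next highest, was at 717 ± 159, and Scd2 at 2.75 ± 1.52, in the same livers.

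Scd1 levels were 43099, 64365, 63316 and 60306 CPM in CD_vehicle and 35992, 46228, 50418 and 50253 CPM in CD_PFOA. They were 60955, 47072, 48061 and 53582 CPM in HFD_vehicle and 46575, 53167, 46002 and 55836 CPM in HFD_PFOA. The 4 groups overlap throughout, with CD_vehicle 1 low in its group. No comparison called Scd1: PFOA gave a log2 fold change of -0.34 ± 0.14 (SE, adjusted p 0.0823 by edgeR) on the control diet, with a 95% interval of -0.62 to -0.05, and -0.06 on the high-fat diet, with an interval of -0.34 to 0.23. Without CD_vehicle 1 the fall of Scd1 on the control diet passed, at -0.45 (adjusted p 0.00978 by edgeR), and without CD_vehicle 1 and 4 at -0.49 (0.00748).

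Scd2, in contrast, was low in every vehicle liver and high in every PFOA liver. Its levels were 6.63, 9.48, 20.1 and 23.9 CPM in CD_vehicle and 202, 325, 387 and 417 CPM in CD_PFOA. They were 39.5, 42.4, 35.3 and 58.2 CPM in HFD_vehicle and 194, 540.5, 698 and 600.0 CPM in HFD_PFOA. All PFOA livers lie above all vehicle livers on either diet, and all HFD_vehicle livers lie above all CD_vehicle livers; HFD_PFOA 1 was the lowest PFOA liver. PFOA raised Scd2 22.1-fold on the control diet (log2 4.47 ± 0.41, adjusted p 1.16e-07 by edgeR) and 11.6-fold on the high-fat diet (3.53 ± 0.39, adjusted p 1.91e-06). The diet raised it 2.92-fold under vehicle (1.55 ± 0.37, adjusted p 0.0115 by edgeR). Under PFOA the diet difference was 0.61, with an interval of -0.12 to 1.34 (adjusted p 0.547 by edgeR), and the 2 responses to PFOA were not called different (interaction -0.94 ± 0.51, adjusted p 0.528). The group order was HFD_PFOA, CD_PFOA, HFD_vehicle and CD_vehicle, and the neighbours HFD_PFOA and CD_PFOA overlapped.

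Even at its highest, Scd2 remained a small share of Scd1. Scd2 counts were 0.0147% to 0.0397% of Scd1 counts in CD_vehicle, 0.0648% to 0.109% in HFD_vehicle, 0.562% to 0.830% in CD_PFOA and 0.417% to 1.52% in HFD_PFOA. Scd1 was called higher in none of the comparisons in which Scd2 was. How many reads counted for Scd2 came from Scd1, in vehicle or in PFOA livers, was not tested. The summed level of 7 macrophage markers, cells in which Scd2 is also expressed, was 129 to 235.4 CPM in CD_vehicle and 98.9 to 234.9 CPM in CD_PFOA, and 203 to 265 CPM in HFD_vehicle and 156 to 319 CPM in HFD_PFOA, overlapping between vehicle and PFOA on each diet. With PFOA 0 of the 7 were called on either diet (24.4% and 16.5% of all genes). With the diet under vehicle 2 of the 7 were called higher and 0 lower (5.19% and 5.21% of all genes). Their median log2 fold change was 0.49 there. The summed level of 7 adipocyte markers was 2765 to 5446 CPM in CD_vehicle and 675 to 958 in CD_PFOA, and 2496 to 3298 in HFD_vehicle and 564 to 882 in HFD_PFOA, most of it Car3, which hepatocytes also express. Among its defining genes, Lep was at 0 in every library, and Adipoq had 18 counts in CD_vehicle and 1 in CD_PFOA, and 10 in HFD_vehicle and 2 in HFD_PFOA. Of the 7 adipocyte markers 3 were tested. With PFOA 1 was called higher and 1 lower on the control diet, and again 1 and 1 on the high-fat diet. With the diet under vehicle 1 was called higher and 0 lower. Of all genes 11.8%, 8.60% and 5.19% were called higher in these comparisons, and 12.6%, 7.91% and 5.21% lower. The part of macrophages and adipocytes in the Scd2 values was not tested.

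**Figure D2:**
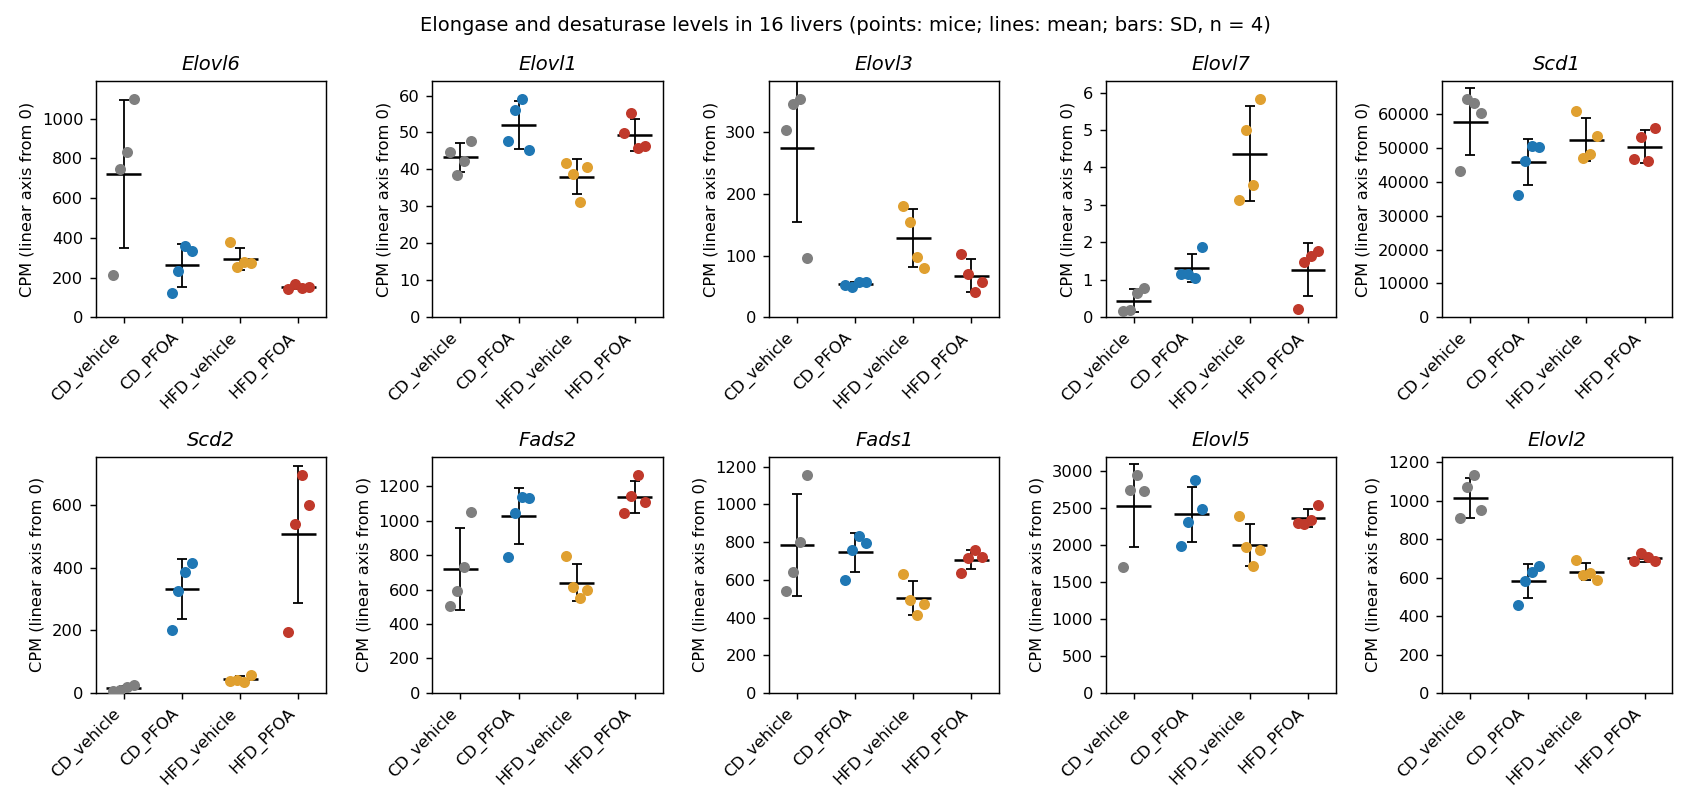
CPM of each member (vertical axes, linear from 0) in the 4 groups (horizontal axis), with a point per mouse, a line at the mean and bars for the SD (n = 4). The Scd2 panel shows the PFOA livers between 194 and 698 CPM and the vehicle livers at 58.2 or lower, while the Scd1 panel shows overlapping groups.

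In the saturated and very long chain branch, Elovl6 and Elovl3 were highest in control livers and lower with PFOA or the high-fat diet. Elovl6, which makes stearate from palmitate, was at 211, 749, 831 and 1099 CPM in CD_vehicle and 122, 234.6, 361 and 334 CPM in CD_PFOA. It was at 377, 255, 276 and 272 CPM in HFD_vehicle and 145, 168, 148 and 150.1 CPM in HFD_PFOA. CD_vehicle 1 lies within the range of the treated groups, and the other 3 control livers lie above every other library. The HFD_PFOA livers all lie below the HFD_vehicle livers. PFOA lowered Elovl6 on the control diet by 63.6% in the fit (log2 -1.46 ± 0.35, adjusted p 0.00389 by edgeR), and the diet lowered it under vehicle (-1.29 ± 0.34, adjusted p 0.0212). The diet call was lost without CD_vehicle 3 or HFD_vehicle 2, 3 or 4, with edgeR adjusted p up to 0.0682. With only the vehicle livers in the fit it was lost too (adjusted p 0.0664 by edgeR). On the high-fat diet the PFOA difference of -0.95 ± 0.34 missed the threshold (adjusted p 0.0655 by edgeR), with an interval of -1.67 to -0.23.

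Elovl6 in HFD livers is a case where the set of libraries in the fit decides the call. Without CD_vehicle 1 the same difference of -0.95 had an edgeR adjusted p of 0.0047, without CD_vehicle 4 0.0429 and without CD_PFOA 1 0.0376. Without CD_vehicle 1 and 4 it was 0.00228, without a filter on low counts 0.000306 and with only the 8 HFD livers in the fit 7.18e-06. The cause of these changes was not tested. Without CD_vehicle 1 and 4 the fall on the control diet was -1.59 for Elovl6 (adjusted p 5.18e-05 by edgeR).

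Elovl3, an elongase known for brown fat and for its daily rhythm in liver, was at 304, 346, 354 and 96.3 CPM in CD_vehicle and 52.6, 49.2, 57.1 and 56.6 CPM in CD_PFOA. In HFD_vehicle it was at 181, 155, 97.7 and 80.0 CPM and in HFD_PFOA at 102, 70.4, 41.1 and 56.9 CPM. The CD_PFOA livers are tightly grouped and below every CD_vehicle liver, and the HFD groups overlap. PFOA lowered Elovl3 5.11-fold on the control diet (log2 -2.35 ± 0.34, adjusted p 3.13e-05 by edgeR). On the high-fat diet the difference was -0.92 ± 0.32 (adjusted p 0.0591 by edgeR), with an interval of -1.602 to -0.24. The call was gained without CD_vehicle 4 (adjusted p 0.00739 by edgeR), HFD_vehicle 4 (0.0343) or HFD_PFOA 1 (0.0223). It was also gained without CD_vehicle 1 and 4 (0.00472 for Elovl3), with library totals (0.0342), with only the HFD livers in the fit (0.0139) and without a filter on low counts (0.000274). The diet lowered it under vehicle by 1.10 on the log2 scale (SE 0.32, adjusted p 0.0361 by edgeR), a call lost when any of 6 libraries was left out (CD_vehicle 1, 2 or 3 and HFD_vehicle 2, 3 or 4, adjusted p up to 0.121). With only the vehicle livers in the fit that call was lost too (adjusted p 0.106 by edgeR). The difference between the responses of Elovl3 to PFOA on the 2 diets was 1.43 ± 0.46 (adjusted p 0.211 by edgeR). It passed without CD_vehicle 4 (1.71, adjusted p 0.0113) or without CD_vehicle 1 and 4 (1.78, adjusted p 0.00467). CD_vehicle 4 was singled out above by its own Elovl3 level, and leaving it out lowers the spread of Elovl3. The Elovl3 calls gained without it therefore do not show a response by themselves.

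Elovl1, which makes the very long saturated chains of sphingolipids, stayed within a narrow range: its group means were 43.3 ± 3.88 CPM in CD_vehicle and 52.0 ± 6.55 in CD_PFOA, and 38.1 ± 4.70 in HFD_vehicle and 49.4 ± 4.38 in HFD_PFOA. In HFD livers the PFOA group, at 45.8 to 55.3 CPM, lies wholly above the vehicle group, at 31.3 to 41.8 CPM. There PFOA raised Elovl1 by 29.4% (log2 0.37 ± 0.11, adjusted p 0.0246 by edgeR), and the call was lost when any of 4 libraries was left out (HFD_vehicle 2 or 3, HFD_PFOA 1 or 2). With library totals it was lost too (adjusted p 0.0663 by edgeR), while the rise of 0.26 on the control diet (adjusted p 0.0909) then passed, at 0.35 (adjusted p 0.0391).

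Elovl7, an elongase of saturated chains, had the fewest counts, 40 over the 4 CD_vehicle libraries, 127 in CD_PFOA, 384 in HFD_vehicle and 128 in HFD_PFOA. Its levels were 0.167, 0.183, 0.656 and 0.769 CPM in CD_vehicle, 1.16, 1.16, 1.05 and 1.88 CPM in CD_PFOA, 3.13, 4.999, 3.53 and 5.82 CPM in HFD_vehicle, and 0.212, 1.47, 1.63 and 1.76 CPM in HFD_PFOA. HFD_vehicle lies above all other groups, and HFD_PFOA 1, with 0.212 CPM, lies among the CD_vehicle livers. The diet raised Elovl7 under vehicle 9.77-fold (log2 3.29 ± 0.57, adjusted p 0.00115 by edgeR). PFOA lowered it on the high-fat diet (-1.78 ± 0.52, adjusted p 0.0215 by edgeR) and raised it on the control diet (1.56 ± 0.56, adjusted p 0.0488).

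The rise on the control diet is weakly held. Of the 16 fits that each leave out 1 library 13 lost it, with adjusted p up to 0.128 by edgeR for Elovl7. It held without CD_vehicle 3, CD_vehicle 4 or HFD_PFOA 1, and was lost without CD_vehicle 1 and 4 together (0.0927). With only the control-diet livers in the fit it was lost as well (adjusted p 0.098 by edgeR). The fall on the high-fat diet was lost without HFD_vehicle 2 (adjusted p 0.0558) or HFD_vehicle 4 (0.0744). The 2 responses of Elovl7 to PFOA had opposite signs, and their difference of -3.33 ± 0.76 had an adjusted p of 0.0748 by edgeR, of 0.0016 by DESeq2 and of 0.0167 without CD_vehicle 4 and 0.0231 without CD_vehicle 1 and 4 by edgeR. Beside these values, the summed level of 5 bile duct cell (cholangiocyte) markers was 45.9 to 96.7 CPM in CD_vehicle and 32.3 to 55.6 in CD_PFOA, and 124 to 249 in HFD_vehicle and 55.3 to 78.8 in HFD_PFOA. Over the 5 markers the median log2 fold change was 0.66 with the diet under vehicle, with 1 called higher. It was -0.60 with PFOA on the high-fat diet, with 1 called lower, and -0.57 on the control diet, with 0 called. Most of the sum was Spp1, which other liver cells also make. Krt19, a defining keratin of bile ducts, ran from 0.598 to 4.36 CPM in CD_vehicle and from 0.666 to 1.57 CPM in HFD_vehicle, and was called in no comparison. The summed level of 7 stellate cell markers was 343 to 595 CPM in CD_vehicle and 487 to 662 in CD_PFOA, and 630.4 to 727 in HFD_vehicle and 461 to 629 in HFD_PFOA. Of these 7 the diet under vehicle raised 3 and lowered 0 (5.19% and 5.21% of all genes), with a median of 0.51. PFOA raised 0 and lowered 1 on the high-fat diet (8.60% and 7.91%), with a median of -0.37. On the control diet it raised 2 and lowered 0 (11.8% and 12.6%), with a median of 0.20. The part of these cells in the Elovl7 values was not tested.

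The polyunsaturated branch did not move as a unit. Fads2, which begins the conversion of linoleate and alpha-linolenate, rose with PFOA on both diets. Its levels were 505, 593, 731 and 1047 CPM in CD_vehicle, 789, 1042.5, 1137 and 1133 CPM in CD_PFOA, 793, 616, 551 and 600.2 CPM in HFD_vehicle, and 1042, 1140.2, 1265 and 1107 CPM in HFD_PFOA. In HFD livers the groups do not overlap, and in CD livers CD_vehicle 4 lies among the PFOA livers. PFOA raised Fads2 by 77.8% on the high-fat diet (log2 0.83 ± 0.18, adjusted p 0.00232 by edgeR) and by 42.6% on the control diet (0.51 ± 0.18, adjusted p 0.0399). The control-diet call for Fads2 was lost in 7 of 16 fits that leave out 1 library (CD_vehicle 1, 2 or 3, CD_PFOA 2, 3 or 4, HFD_PFOA 2), with adjusted p up to 0.116 by edgeR, and held without CD_vehicle 1 and 4 together (0.63, adjusted p 0.00403). With only the control-diet livers in the fit that call was lost (adjusted p 0.112 by edgeR). The difference between the 2 responses was 0.32 (adjusted p 0.709 by edgeR), with an interval of -0.20 to 0.84.

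Fads1, the desaturase that completes arachidonate, was at 539, 644, 801 and 1156 CPM in CD_vehicle and 599, 755, 834 and 793 CPM in CD_PFOA. It was at 632, 495, 415 and 470.1 CPM in HFD_vehicle and 634, 715, 757 and 720.2 CPM in HFD_PFOA. The CD groups overlap fully, and in HFD livers the lowest PFOA liver lies just above the highest vehicle liver. The diet lowered Fads1 under vehicle (-0.64 ± 0.18, adjusted p 0.0281 by edgeR), and without CD_vehicle 4, the highest library, the difference shrank to -0.39 (adjusted p 0.0767). Leaving out CD_vehicle 3 or HFD_vehicle 2, 3 or 4 also lost the call, with edgeR adjusted p up to 0.09. So did a fit of only the vehicle livers. PFOA on the high-fat diet gave 0.49 ± 0.18 (adjusted p 0.0706 by edgeR), called by DESeq2 (adjusted p 0.0338) and by edgeR without CD_vehicle 1 (0.0297), CD_vehicle 4 (0.0145), both (0.0047) or HFD_vehicle 1 (0.0346). On the control diet it gave -0.08, with an interval of -0.45 to 0.30.

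Elovl5, the elongase between those desaturation steps, had the highest CPM of the branch and was called in no comparison. Its means were 2526 ± 561 CPM in CD_vehicle and 2414 ± 371 in CD_PFOA, and 2000 ± 282 in HFD_vehicle and 2365 ± 119 in HFD_PFOA. Neighbours in the order of their levels all overlap. CD_vehicle 1, at 1698 CPM, lay below the other 3 control livers at 2729.8 to 2942, and without it the diet difference under vehicle for Elovl5 passed (-0.48, adjusted p 0.0104 by edgeR, against -0.34 and 0.161 with it), as it did without CD_vehicle 1 and 4 (-0.51, 0.00832). For PFOA the intervals of Elovl5 were -0.37 to 0.24 on the control diet and -0.07 to 0.55 on the high-fat diet.

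Elovl2, which makes the precursors of docosahexaenoate, was the member whose response to PFOA differed by diet. Its levels were 912, 1071, 1134 and 949 CPM in CD_vehicle and 456, 582, 627 and 663 CPM in CD_PFOA. They were 692, 614, 625 and 589 CPM in HFD_vehicle and 687, 728, 709.8 and 688 CPM in HFD_PFOA. All 4 CD_vehicle livers lie above the other 12, and HFD_vehicle and HFD_PFOA overlap at 687 to 692 CPM. PFOA lowered Elovl2 on the control diet by 42.7% (log2 -0.80 ± 0.11, adjusted p 1.23e-05 by edgeR), and so did the diet under vehicle, by 38.0% (-0.69 ± 0.11, adjusted p 0.000506). On the high-fat diet PFOA gave 0.16 ± 0.11 (adjusted p 0.359 by edgeR), with an interval of -0.06 to 0.38.

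The difference between these 2 responses of Elovl2 was 0.96 ± 0.15 on the log2 scale (adjusted p 0.0108 by edgeR). It was called in all 16 fits that leave out 1 library, at 0.86 to 1.03 with adjusted p from 0.00131 to 0.0388, and at 1.08 without CD_vehicle 1 and 4 (adjusted p 0.000178). The diet difference under PFOA, 0.27 ± 0.11, had an unadjusted p of 0.0186 and an adjusted p of 0.334 by edgeR, although the CD_PFOA and HFD_PFOA ranges do not meet. That made 1 of 10 members without overlap there, where 7.68% of all genes had none. The Elovl2 promoter window printed above held GC boxes, as did 24.6% of all windows, and none of the other motifs searched. Another Elovl2 window, at chr13:41220213-41220412 on the minus strand, held no match. Any link of these letters to the response was not tested.

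Ratios of 2 members within a library do not depend on library scaling. Of 4 ratios in 4 comparisons, 0 of 16 passed after adjustment and 9 had an unadjusted exact permutation p under 0.05. The smallest two-sided p that 4 against 4 livers allow is 0.0286, which the adjustment over 16 tests turned into 0.0508 for those 9. They are therefore described by their values and by whether groups overlap.

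The Fads1 to Fads2 ratio varied little within groups. Fads1 counts were 107% to 110.4% of Fads2 counts in CD_vehicle, 75.3% to 80.4% in HFD_vehicle, 70.0% to 75.8% in CD_PFOA and 59.8% to 65.1% in HFD_PFOA. The SD of the log2 ratio was 0.02 to 0.05 in the 4 groups, although the levels of both genes spread widely in CD_vehicle. CD_vehicle 1 and 4, which stand apart for many genes, lie at 107% and 110.4%, and only HFD_vehicle and CD_PFOA touch. PFOA shifted the ratio by -0.58 on the control diet and by -0.34 on the high-fat diet, and the diet by -0.47 under vehicle and by -0.23 under PFOA (each exact permutation p 0.0286, n = 4 against 4, adjusted p 0.0508). The groups do not overlap in any of these 4 comparisons.

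The Scd2 to Scd1 ratio rose by 4.94 on the log2 scale with PFOA on the control diet, by 3.46 on the high-fat diet and by 1.84 with the diet under vehicle, each without overlap (exact permutation p 0.0286, adjusted p 0.0508). Under PFOA the diets differed by 0.36 (exact permutation p 0.429). The Elovl5 to Elovl2 ratio was 0.77 higher with PFOA on the control diet and 0.30 lower on the high-fat than on the control diet under PFOA (each exact permutation p 0.0286, adjusted p 0.0508), and differed by 0.09 with PFOA on the high-fat diet (exact permutation p 0.429). The Elovl3 to Elovl6 ratio spread from -3.51 to 0.53 on the log2 scale within CD_vehicle, with exact permutation p between 0.114 and 0.971 in its 4 comparisons. The lowest of these was CD_vehicle 4 and the highest CD_vehicle 1, so these genes did not keep a fixed proportion in control livers.

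**Figure D3:**
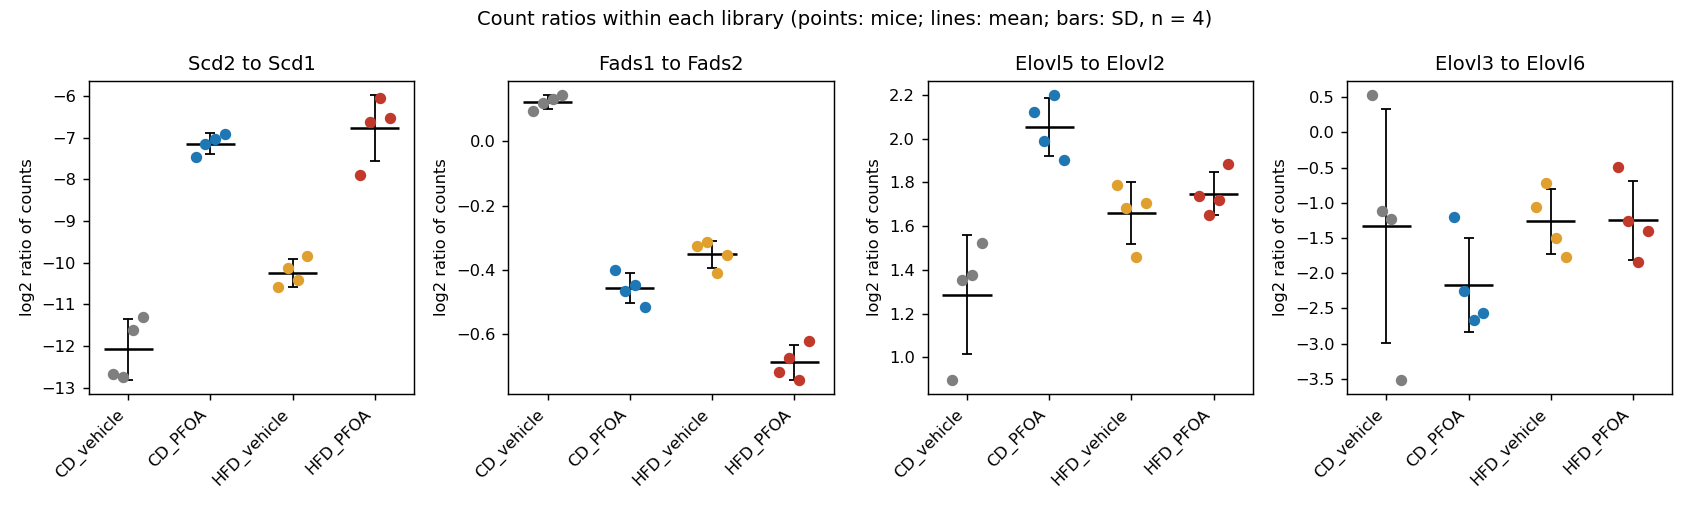
The log2 ratio of counts of 2 genes within each library (vertical axes) for 4 pairs in the 4 groups, with a point per mouse, a line at the mean and bars for the SD (n = 4). The Fads1 to Fads2 panel shows 4 tight groups, from 0.12 in CD_vehicle to -0.69 in HFD_PFOA, and the Elovl3 to Elovl6 panel shows CD_vehicle spread over the widest range.

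The surrounding pathway was read from 8 lists of 65 genes, of which 59 were tested. The shares of all genes to set beside the list counts were 11.8% higher and 12.6% lower for PFOA on the control diet. They were 8.60% and 7.91% for PFOA on the high-fat diet, and 5.19% and 5.21% for the diet under vehicle. A single called gene in such short lists is not read as a result about its list. Among other elongases and desaturases, Scd3, another stearoyl-CoA desaturase whose coding sequence matches Scd1 at 90.44% of bases, rose with PFOA from 2.53 to 7.61 CPM on the control diet (log2 1.59 ± 0.38, adjusted p 0.00421 by edgeR) and from 2.63 to 26.1 CPM on the high-fat diet (3.29 ± 0.39, adjusted p 4.63e-06). Fads3, the third gene of the Fads cluster, rose with PFOA on the high-fat diet (1.17 ± 0.31, adjusted p 0.0119 by edgeR) and was at 0.56 on the control diet (adjusted p 0.21). Fads6 fell slightly with PFOA (-0.32 and -0.29), and Scd4 fell on the control diet (-1.78, adjusted p 0.0441 by edgeR). Scd4 had few counts, 123 over the 4 CD_vehicle libraries and 38 over the 4 CD_PFOA libraries (means of 1.38 and 0.395 CPM). Reads that fit both Scd1 and its relatives could also move between Scd1, Scd3 and Scd4. In all, 1 of 5 tested genes of this list rose and 2 fell with PFOA on the control diet, 2 rose and 1 fell on the high-fat diet (without CD_vehicle 4 the control-diet counts were 2 and 1), and 0 changed with the diet under vehicle by edgeR or DESeq2, with 0 at an unadjusted p under 0.05; Fads6 (-0.13) and Fads3 (-0.27) had the smallest p. Elovl4, which makes the longest chains of skin and retina, was not tested: it had 3 counts in CD_vehicle, 13 in HFD_PFOA and 0 in the other groups.

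Elongation needs reduction and dehydration steps after each condensation. Hacd1 and Hacd3, dehydratases of this cycle, rose with PFOA on the control diet (1.23 ± 0.19 and 0.45 ± 0.10, adjusted p 8.01e-05 and 0.00262 by edgeR) and on the high-fat diet (0.95 and 0.83). Those were 2 of 6 tested genes, with 0 lower. With the diet under vehicle 1 rose, the dehydratase Hacd4 (1.35 ± 0.39), and 2 fell, Hacd3 (-0.35) and the reductase Tecr (-0.58 ± 0.13, adjusted p 0.00643 by edgeR). With library totals 1 rose and 0 fell. Of the genes that bring electrons to desaturases, Cyb5r1, a cytochrome b5 reductase, rose with PFOA on the control diet from 3.08 to 13.4 CPM (2.12 ± 0.34, adjusted p 0.000113 by edgeR) as 1 of 6, and Cyb5r3 was at -0.42 (adjusted p 0.0695). With PFOA on the high-fat diet 0 of 6 were called by edgeR and 1 by DESeq2, with 1 at an unadjusted p under 0.05; Cyb5r1 (0.88, adjusted p 0.0747 by edgeR) and Cyb5rl (0.23) had the smallest p. With the diet Cyb5b and Cyb5r3 fell (-0.44 and -0.57), calls that library totals did not keep, giving 1 higher and 0 lower. Without CD_vehicle 1, PFOA on the control diet raised 1 and lowered 2, and the diet raised 1 and lowered 2. Cytochrome b5 itself, Cyb5a, was not called in these comparisons.

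The genes that supply palmitate and malonyl-CoA, the building block of elongation, fell with the diet under vehicle in 6 of 8 cases and rose in 0, with a list median of -1.08 against -0.03 over all genes tested. Acss2, which makes acetyl-CoA from acetate, fell by 2.07 and Acacb by 1.20. With library totals 3 of 8 were lower, and without CD_vehicle 1 all 8 were. The 4 genes that PFOA lowered on the control diet were Acly, the citrate lyase (-1.93 ± 0.34, adjusted p 0.000274 by edgeR), Fasn (-1.05 ± 0.29, adjusted p 0.0128), the citrate carrier Slc25a1 (-0.41) and Thrsp (-1.66); it raised Me1, a source of NADPH (0.98 ± 0.23). On the high-fat diet PFOA raised 3 of 8, Me1 (1.602), Acacb (1.12) and Acss2, and lowered 0, and Fasn was at -0.28 (adjusted p 0.603 by edgeR). DESeq2 called 2 of 8 there. Without CD_vehicle 1, PFOA lowered 6 of 8 on the control diet and 1 of 8 on the high-fat diet.

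Among 15 regulators, PFOA raised 3 and lowered 7 on the control diet, raised 4 and lowered 4 on the high-fat diet, and the diet under vehicle raised 2 and lowered 5. With library totals the counts were 3 and 5 for PFOA on the control diet and 2 and 2 for the diet, and without CD_vehicle 1 they were 5 and 6, and 2 and 6. Ppara rose with PFOA on the control diet (0.86 ± 0.10, adjusted p 1.81e-06 by edgeR) and with the diet under vehicle (0.75 ± 0.10), and PFOA on the high-fat diet gave 0.22 (adjusted p 0.133). Srebf1, which encodes SREBP-1, fell with PFOA on the control diet (-0.72 ± 0.18, adjusted p 0.00556 by edgeR) and was at -0.34 on the high-fat diet (adjusted p 0.229). Mlxipl, which encodes ChREBP, rose on both (0.71 ± 0.14 and 1.02 ± 0.14, adjusted p 0.000877 and 3.1e-05 by edgeR), while its partner Mlx fell on the control diet (-0.74 ± 0.12). Ppargc1b, a coactivator of fat synthesis genes, rose with PFOA on the high-fat diet by 1.30 (SE 0.28), from 4.00 to 9.83 CPM. On the control diet its mean was also higher with PFOA, at 9.25 CPM in CD_PFOA against 3.03 CPM in CD_vehicle. The ranges there were 5.86 to 12.2 CPM and 2.17 to 3.93 CPM. Scap, the escort protein of SREBPs, fell with the diet (-0.87 ± 0.12, adjusted p 0.000188 by edgeR).

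The last 3 lists hold genes that act on the products. Acsl1, which activates fatty acids, rose from 1081 to 3459 CPM on the control diet (1.68 ± 0.14, adjusted p 2.66e-08 by edgeR) and from 818 to 3323 CPM on the high-fat diet (2.02 ± 0.14). Of 4 acyl-CoA synthetases tested PFOA raised 2 and 4 on these diets, the others being Acsl4 on both and Acsl3 and Acsl5 on the high-fat diet; under vehicle the diet lowered 2, Acsl3 (-0.57) and Acsl5 (-0.64), and with library totals 0. Lpcat3, which places arachidonate into phospholipids, rose by 1.15 ± 0.15 and 1.39 ± 0.15 (adjusted p 9.78e-06 and 1.38e-06 by edgeR). It was 1 of 2 acyltransferases of 7 to rise with PFOA on the control diet, with Agpat3 (0.32), and the only one of 7 on the high-fat diet; with the diet under vehicle Lpcat2 rose (1.53 ± 0.39), and Lpcat1 was at 0.54 (adjusted p 0.242 by edgeR). Peroxisomal enzymes, which shorten very long chains and finish docosahexaenoate, rose in 6 of 8 cases and fell in 2 with PFOA on the control diet, and rose in 5 and fell in 1 on the high-fat diet. Scp2, a thiolase and lipid carrier, fell on both diets (-0.62 and -0.51). The count of 2 lower on the control diet became 1 without CD_vehicle 1 or 4 and with library totals. Examples are the transporter Abcd3 (1.41 and 1.76) and the thiolases Acaa1b (1.69 on the control diet) and Acaa1a (1.48 on the high-fat diet). Their medians were 1.05 and 1.12, against 0.00 and 0.01 over all genes tested. With the diet under vehicle 0 of 8 were called by edgeR and 1 by DESeq2, with 3 at an unadjusted p under 0.05; Abcd3 (-0.31) and Acaa1b (0.32) had the smallest p. With library totals 2 of 8 were higher.

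**Figure D4:**
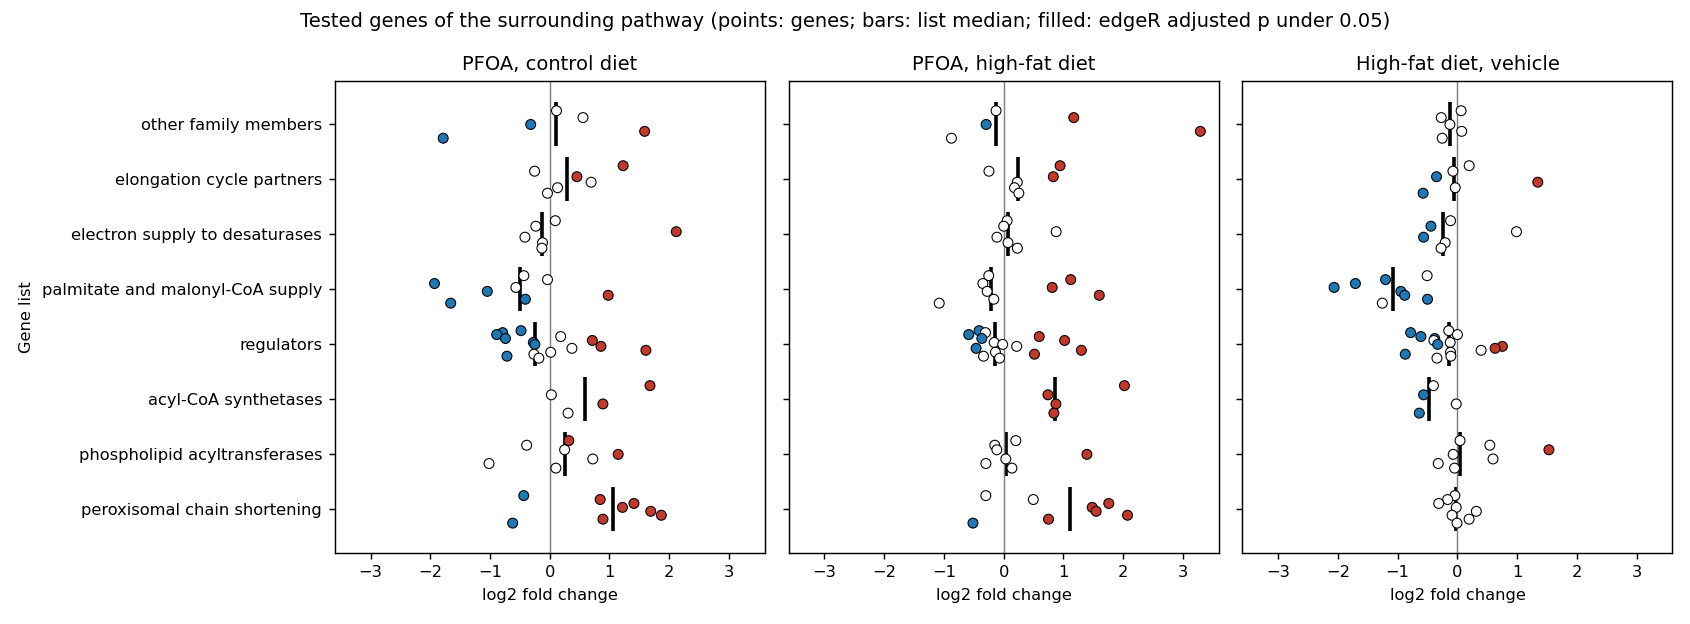
The log2 fold change (horizontal axes) of each tested gene in the 8 lists (vertical axis) for PFOA on either diet and for diet under vehicle, with bars at list medians and filled points for an edgeR adjusted p under 0.05, red higher and blue lower. The peroxisomal list has medians of 1.05 and 1.12 with PFOA, and the palmitate supply list a median of -1.08 with the diet.

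In the diet comparison under PFOA 0 of the 59 list genes were called by edgeR and 1 by DESeq2, with 10 at an unadjusted p under 0.05. In the interaction the counts were 0, 6 and 14. Over all 14998 genes edgeR called 0.0600% and 0.207% in these 2 comparisons, and DESeq2 called 179 and 223 genes. The share of all genes at an unadjusted p under 0.05 was not computed. Without CD_vehicle 1 the interaction called 106 genes in all. Among them were 4 of the 8 palmitate supply genes and 2 of the 4 acyl-CoA synthetases, all higher, and 2 of the 15 regulators, 1 in each direction. Without CD_vehicle 4 it called 352 genes, with 0 of the 8 palmitate supply genes and 1 of the 4 synthetases, higher. Of the regulators 1 was then higher and 2 lower. Without both libraries it called 652 genes, with 4 of the 8 and 3 of the 4, all higher. Of the regulators 4 were then higher and 2 lower. Scap (0.78 ± 0.17) and Ppara (-0.64 ± 0.14) had the smallest interaction p of the regulators, both with an adjusted p of 0.0558 by edgeR. In the other lists these were Scd3 and Degs1, Hacd3 and Tecr, Cyb5r1 and Cyb5rl, Acacb and Acss2, Acsl3 and Acsl5, Lpcat3 and Lpcat4, and Abcd3 and Acaa1a. In the diet comparison under PFOA they were Scd3 (1.78 ± 0.36, adjusted p 0.0843 by edgeR) and Degs1, Hacd4 and Tecr, Cyb5b and Cyb5r3, Acss2 and Slc25a1, Insig1 and Insig2, Acsl3 and Acsl5, Lpcat2 and Lpcat1, and Abcd2 and Acaa1a. None of these passed the threshold, which does not show that the diets acted alike.

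The genes whose log2 CPM most resembled the member of each branch with the highest mean CPM, not scaled by length, over the 16 libraries, by Pearson's r, are given as a description, since libraries share group, depth and the spread of CD_vehicle. For Elovl6 they were Thrsp (0.956), Fasn (0.95) and Dgat2 (0.949), for Scd1 Fasn (0.84), H3f3b (0.832) and Gm15982 (0.818), and for Elovl5 they included Pdlim3 (0.91) and Cela1 (0.884). Among the members, the highest correlations were 0.83 between Scd2 and Fads2 and 0.818 between Elovl5 and Fads1, and the lowest was -0.883 between Scd2 and Elovl3. Fads1 and Fads2, whose ratio was so narrow within groups, correlated at 0.734 over all groups.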

How the data were processed

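RNA of 16 livers was extracted with a Qiagen RNeasy mini kit and sequenced from non-stranded BGI libraries, per the labels' protocols. The values are raw gene-level counts as deposited. Per the submitters' processing notes the authors' tools were STAR 2.5.2b, Subread 1.6.0 with featureCounts, Trimmomatic 0.33 and bcl2fastq 2.20.0.422, with the build GRCm38 (mm10) and an annotation release not given in the sources used here. Every column was matched to a mouse by name. Replicate numbers only name mice. Replicates differed by more than counting noise in every group (a chi-square of 8.55 to 152 for each degree of freedom). Gene positions and lengths come from GENCODE M21, which matched 53274 IDs by number.

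With edgeR 4.0.16 in R 4.3.3, low genes were removed by filterByExpr, and the rest were scaled by TMM and fitted in 1 quasi-likelihood model with a mean per group (12 residual degrees of freedom, common biological coefficient of variation 0.242). Benjamini-Hochberg adjustment ran over all 14998 genes, with calls under 0.05. Log2 fold changes include edgeR's prior count, and an interval is the 95% interval from the SE. Interaction means PFOA in HFD minus PFOA in CD. Count ratios were compared by two-sided exact permutation tests. The fit was tested on simulated counts. DESeq2 1.42.0 and the settings of the closing section were alternatives.

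All members are named; of each pathway list, the 2 genes with the smallest p per comparison and Srebf1, Mlxipl, Ppara, Fasn, Elovl4, Fads3 and Lpcat3 were to be named; a few genes that the rules select are not reported here. Genes that rose or fell in small counts outside this rule (such as Acsl4, Acss2, Slc25a1, Scd4 and Scp2) and Cyb5a were added after their values were seen. Likeness is the Pearson correlation of log2 CPM, for the 3 closest genes. The members and lists were chosen with earlier results of these data known.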

Additional observations from a re-analysis of the deposited data

Results flagged for a closer look

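Of 40 sets of 4 libraries examined (10 members in 4 groups), 2 held a library far from the other 3, where chance alone flags about 1 in 20. Elovl5 in CD_vehicle was lowest in CD_vehicle 1, at 1698 CPM, and the other 3 lay at 2729.8 to 2942. Elovl7 in CD_PFOA was highest in CD_PFOA 4, at 1.88 CPM, and the other 3 lay at 1.05 to 1.16. The response of Elovl2 to PFOA differed between the diets by 0.96 on the log2 scale (edgeR interaction, adjusted p 0.0108), being -0.80 on the control diet, with 4 of 4 PFOA livers below every vehicle liver, and 0.16 on the high-fat diet, where the groups overlap.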

How the results depend on the processing

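No paired analysis was possible because replicate numbers follow the order of the records and pair no mice. Alternatives were RLE size factors, library totals, no filter on low counts, DESeq2, fits of only the groups compared, each library left out, and CD_vehicle 1 and 4 left out. No called member reversed. For PFOA in HFD the 4 members called became 7 without a filter, 7 with only the groups compared and 7 without CD_vehicle 1 and 4, and 2 to 7 when 1 library was left out; 2 without HFD_vehicle 2 and 7 without CD_vehicle 4 were the only moves past 1.5 times. For HFD in vehicle the 6 members became 3 with only the groups compared and 3 to 6 when 1 library was left out (3 without CD_vehicle 3 or HFD_vehicle 2, 3 or 4); its 1561 genes became 896, 2363 without CD_vehicle 1 and 4, and 881 (without HFD_vehicle 4) to 2272. For HFD in PFOA the 0 members became 1 (Elovl6) without a filter, and the 9 genes became about 2.2e+02 without a filter (142 higher and 83 lower), 179 with DESeq2, 129 with only the groups compared, 208 without CD_vehicle 1 and 4, and 1 to 56 (most without CD_vehicle 4) when 1 library was left out. For the interaction the 1 member became 3 without a filter, 2 with DESeq2, 3 without CD_vehicle 1 and 4, and 1 to 3 (3 without CD_vehicle 4) when 1 library was left out; its 31 genes became 290, 223, 652 and 13 to 352 (most without CD_vehicle 4). The cause of these moves was not tested. For PFOA in CD the 6 members ranged over 4 to 7, and the ratios kept 0 calls, since leaving out a library leaves no p small enough. The list counts without CD_vehicle 1, 4 or both, with library totals and by DESeq2 were chosen after seeing the data. Elovl7, with 40 counts in CD_vehicle, is the member that depth limits most.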
